A study of Mus musculus with 3 samples.

Results

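The miR-29 family consists of 3 mature miRNAs, miR-29a, miR-29b and miR-29c, all cut from the 3′ arm of their hairpins. They were picked out of the 602 miRNAs on the NanoString panel by their miRBase identifiers, MIMAT0000535, MIMAT0000127 and MIMAT0000536, and all 3 were present. The family was chosen by the measured ratios of miR-29a and miR-29b between light damaged and undamaged glia, which were unequal, so these ratios are given as a description and not as evidence. The samples were Müller glia (MG), radial cells that span the retina and support its neurons, sorted from adult mice by a tdTomato reporter that Cre recombinase, driven by the MG promoter Rlbp1, switches on after tamoxifen. The wild type sample pooled 40 undamaged retinas of Rlbp1-CreER:tdTomato mice. The light damage (LD) sample pooled 44 retinas of the same reporter mice, crossed to the albino Swiss Webster strain, taken 7 days after 8 h of light at 10000 lux. The Dicer-cKO sample pooled 26 retinas of Rlbp1-CreER:tdTomato:Dicerf/f mice and was taken 1 month after Cre had removed Dicer, which cuts mature miRNAs out of their precursors. All mice received tamoxifen at 75 mg/kg, on 3 days according to the labels and on 4 according to the methods, from 2 to 3 months of age according to the methods, while the series' description gives an age above postnatal day 21.

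Each condition was 1 pooled sample, so there was no spread between replicates and no test was run. Ratios carry exact 95% Clopper-Pearson intervals and levels exact Poisson intervals. Both cover only the counting error of the miRNA itself and not that of the reference used for scaling. Strain, condition and measurement series cannot be told apart, since the mice for light damage were of another strain and the other samples had been measured for an earlier study. In sorted bulk RNA, fewer cells of a type and less RNA per cell cannot be told apart either. The panel lists miRNAs by identifier without names, so the purity of the sort was not checked against miRNAs of MG or of other cells, and Dicer mRNA was not analysed here.

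Members of the miR-29 family are known for silencing genes of the extracellular matrix, among them collagens and elastin, and the DNA methyltransferases Dnmt3a and Dnmt3b. Their loss accompanies fibrosis in several organs, and in the brain they are abundant in mature neurons and astrocytes. A miRNA finds its targets mainly through its seed, bases 2 to 8, which pairs with sites in the 3′ UTR of the mRNA. Members of a family that share the seed are thus expected to have largely the same targets, whichever gene they come from.

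The mature sequences (RefSeq, GRCm38.p6) are shown because all 3 miRNAs carry the same seed, in capitals, and differ only behind it.
miR-29a: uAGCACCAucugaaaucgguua
miR-29b: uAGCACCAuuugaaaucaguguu
miR-29c: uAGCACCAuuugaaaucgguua
The first 9 bases are common to the 3 miRNAs. No other name among the 1679 mature mouse miRNAs of the RefSeq table has this seed. Counted from the 5′ end, miR-29a and miR-29c differ at 1 of 22 bases (C10U, from miR-29a to miR-29c). From miR-29c to miR-29b the changes are G18A, U21G and A22U, and miR-29b is 1 base longer. From miR-29a to miR-29b the change C10U is added to these 3. The nCounter assay tags a miRNA through a bridge oligonucleotide that matches its sequence, and how well the bridges separate miR-29a from miR-29c was not tested.

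The 3′ end is where miR-29b stands apart. It is printed again with its last 6 bases in capitals, a hexamer that has been described as a nuclear import signal of miR-29b.
miR-29b: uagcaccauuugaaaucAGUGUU
Among the 1679 mature names, 2 end in these 6 bases (0.119%), namely miR-29b-3p and miR-92b-5p. miR-29a and miR-29c do not.

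The 3 miRNAs come from 4 hairpins in 2 clusters. On chromosome 6 the genes Mir29a (chr6:31062660-31062747) and Mir29b-1 (chr6:31063023-31063093) lie on the minus strand with 275 bases between them, and the RefSeq gene table (GRCm38.p6) has no other gene over them. On chromosome 1 the genes Mir29b-2 (chr1:195037040-195037120) and Mir29c (chr1:195037547-195037634) lie on the plus strand with 426 bases between them, inside the span of the long noncoding RNA gene A330023F24Rik. Whether they fall into an exon or an intron of it is not given by that table. The mature miR-29b is the same from both clusters, so its counts cannot be divided between Mir29b-1 and Mir29b-2, whereas miR-29a marks the chromosome 6 cluster and miR-29c that on chromosome 1.

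The deposited values are counts of molecules that the authors corrected for background and scaled to the geometric mean of 4 housekeeping mRNAs, here called normalized counts. The scaling factors were 1.15 for wild type, 2.04 for LD and 4.42 for Dicer-cKO, and the miRNA counts before scaling summed to 678722, 230232 and 44258.

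The wild type sample held 8716 normalized counts of miR-29a (95% interval 8520 to 8915), the LD sample 10969 (10678 to 11266) and the Dicer-cKO sample 4052 (3794 to 4323). In this scaling its level was highest after LD and lowest in Dicer-cKO MG, but with Rpl19 as the only reference LD was at 0.736-fold wild type, and with the total miRNA signal Dicer-cKO was at 1.86-fold. For miR-29b the normalized counts were 1748 (1661 to 1838) in the wild type sample, 7515 (7275 to 7761) in the LD sample and 2005 (1825 to 2199) in the Dicer-cKO sample. In this scaling the LD sample stood far above the others, whose intervals overlapped. The interval of the ratio of Dicer-cKO to wild type (1.03 to 1.27) nevertheless did not hold 1. With the total miRNA signal as reference, Dicer-cKO was at 4.60-fold wild type and LD at 1.56-fold Dicer-cKO. For miR-29c they were 2142 (2045 to 2241) in the wild type sample, 2624 (2483 to 2772) in the LD sample and 2527 (2324 to 2743) in the Dicer-cKO sample. In this scaling its level was lowest in wild type MG, and the intervals of LD and Dicer-cKO overlapped, but with the ERCC spike-in rows as reference LD was at 0.614-fold and Dicer-cKO at 0.217-fold wild type. Before scaling, the smallest of these 9 values rested on 454 molecules (miR-29b in Dicer-cKO MG) and the largest on 7546 (miR-29a in wild type MG), so counting error was small throughout. Different bridges capture with different efficiency, and levels are therefore compared between samples and not between members.

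**Figure D1:**
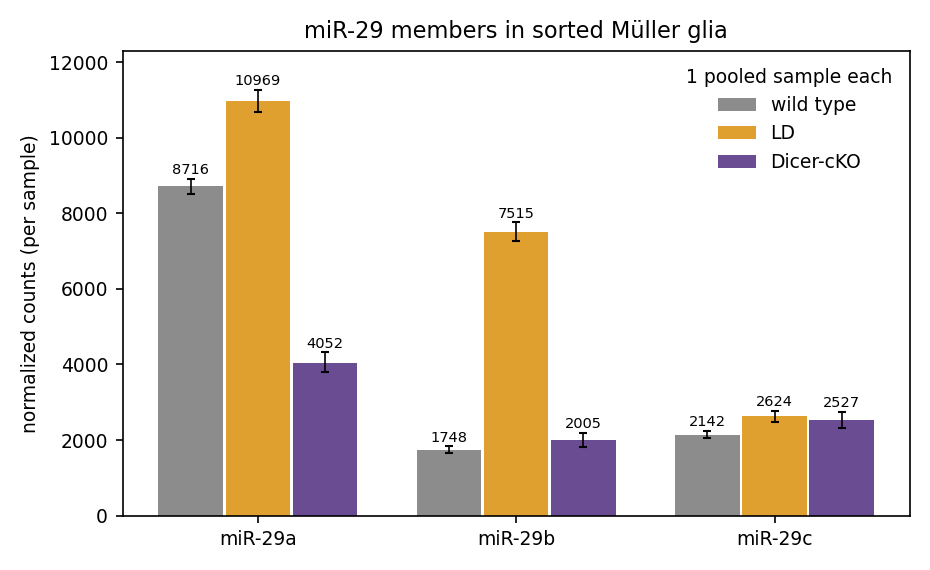
Normalized counts (y axis) of miR-29a, miR-29b and miR-29c (x axis) in the wild type, LD and Dicer-cKO samples, 1 pooled sample each; error bars are exact 95% Poisson intervals and cover counting error only. In this scaling miR-29a is at 4052 in Dicer-cKO MG, miR-29b at 7515 after LD, and miR-29c between 2142 and 2624 in the 3 samples.

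The comparison of LD with wild type MG asked how the miRNAs of reactive glia differ from those at rest. miR-29b rose most, by 330% or 4.30-fold (95% interval 4.05 to 4.57). The rise of miR-29a was 25.8% (21.5 to 30.3) and that of miR-29c 22.5% (14.0 to 31.6). All 3 members were higher by more than counting error, as were 26.9% of the 104 miRNAs whose mean reached 100 normalized counts, and 1 of the 3, miR-29b, was at least 2-fold higher, as were 18.3%. These values chose the family, and nothing is read from the counts. With Rpl19 or the ERCC spike-in rows as the reference for scaling, miR-29a (0.736-fold and 0.631-fold) and miR-29c (0.716-fold and 0.614-fold) were below wild type instead. With the total miRNA signal as the reference, miR-29a (2.11-fold), miR-29b (7.19-fold) and miR-29c (2.05-fold) were all at least 2-fold higher. The share of 18.3% holds for the deposited scaling. The median ratio of the 104 miRNAs was 0.613, and their middle 50% lay between 0.350 and 1.26. There were 11 miRNAs with a larger ratio than miR-29b, 26 with a larger ratio than miR-29a and 27 with a larger ratio than miR-29c.

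The comparison of Dicer-cKO with wild type MG asked which miRNAs are lost when their processing is removed. The Dicer-cKO values were not used to choose the family, but the wild type sample is shared with the comparison above. miR-29a fell by 53.5%, to 0.465-fold (0.434 to 0.498). miR-29b, in contrast, was 1.15-fold (1.03 to 1.27) and miR-29c 1.18-fold (1.07 to 1.30) the wild type level. Of the 3 members, 2 were higher beyond counting error, as were 24.0% of the 104 miRNAs, and 1 was lower, as were 69.2%. The fall of miR-29a passed 2-fold (a ratio of 0.5 or less), as did that of 60.6% of the 104. Without the filter on mean signal, that share was 39.3% of the 224 miRNAs above the lowest value in both samples. The wild type values of miR-29a and miR-29b entered the choice of the family, and nothing is read from these counts. The median ratio of the 104 was 0.388, with the middle 50% between 0.225 and 0.872. miR-29a lay inside this range with 44 miRNAs above it, and miR-29b and miR-29c lay above it, with 24 and 23 miRNAs above them. The direction depended on the reference used for scaling for all 3 members, including the fall of miR-29a, which was 1.86-fold the wild type level with the total miRNA signal as the reference.

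Between LD and Dicer-cKO MG, the level after LD was 2.71-fold (2.52 to 2.91) that in Dicer-cKO MG for miR-29a and 3.75-fold (3.40 to 4.14) for miR-29b. For miR-29c the ratio was 1.04 (0.940 to 1.15), so counting error alone allows LD to be as low as 0.940-fold or as high as 1.15-fold the Dicer-cKO level. With other references for scaling it ranged from 0.434 to 7.11, that of miR-29a from 1.13 to 18.5 and that of miR-29b from 1.56 to 25.7. In this comparison 2 of the 3 members were higher after LD beyond counting error, compared with 55.8% of the 104 miRNAs. The same 2 were at least 2-fold higher, compared with 41.3% of the 104. Without the filter on mean signal, that share was 27.4% of the 175 miRNAs above the lowest value in both samples. The LD values of miR-29a and miR-29b entered the choice of the family, and nothing is read from these counts. The median ratio of the 104 miRNAs was 1.67. miR-29c lay below it, with 73 of the 104 above it.

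**Figure D2:**
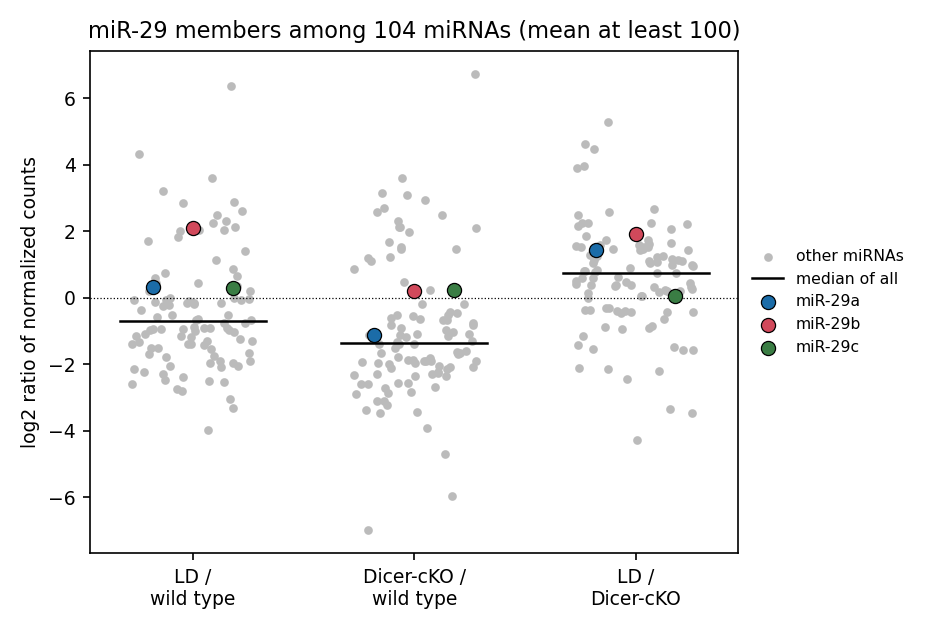
Log2 ratio of normalized counts (y axis) in the 3 comparisons (x axis) for the 104 miRNAs whose mean reached 100 normalized counts; each grey point is 1 miRNA (its sideways position has no meaning), the black line is the median and the coloured points are the miR-29 members. miR-29b lies at 2.10 for LD over wild type, above miR-29a (0.33) and miR-29c (0.29), and miR-29a lies at -1.11 for Dicer-cKO over wild type, below miR-29b (0.20) and miR-29c (0.24).

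To compare the members with each other, the ratio of 1 member between 2 samples was divided by that of another. A factor that multiplies every miRNA of a sample cancels, so these relative changes are the same under every scaling. For LD over wild type, the ratio of miR-29b was 3.42 times that of miR-29a (95% interval 3.19 to 3.66), the contrast for which the family was chosen, and 3.51 times that of miR-29c (3.19 to 3.85). miR-29c and miR-29a differed within counting error, with a relative change of 0.973 (0.899 to 1.06). These members come from different clusters and differ by 1 base.

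After Dicer deletion the values of another pair lay close together. For Dicer-cKO over wild type, the ratio of miR-29b was 0.972 times that of miR-29c (0.843 to 1.12), a difference within counting error. The ratio of miR-29b was 2.47 times (2.17 to 2.80) and that of miR-29c 2.54 times (2.26 to 2.86) the ratio of miR-29a. These values have the same wild type counts as denominator that entered the choice of the family and are a description. The pair miR-29b and miR-29c shares the cluster on chromosome 1, but miR-29b also comes from the cluster of miR-29a. Between Dicer-cKO and LD the 3 members all differed beyond counting error: relative to miR-29a, miR-29b was 1.38-fold higher after LD (1.23 to 1.56) and miR-29c was at 0.384-fold (0.339 to 0.434), and miR-29b relative to miR-29c was 3.61-fold higher (3.13 to 4.15). The intervals that hold 1 show only that counting error could account for the difference, not that the members behaved alike.

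**Figure D3:**
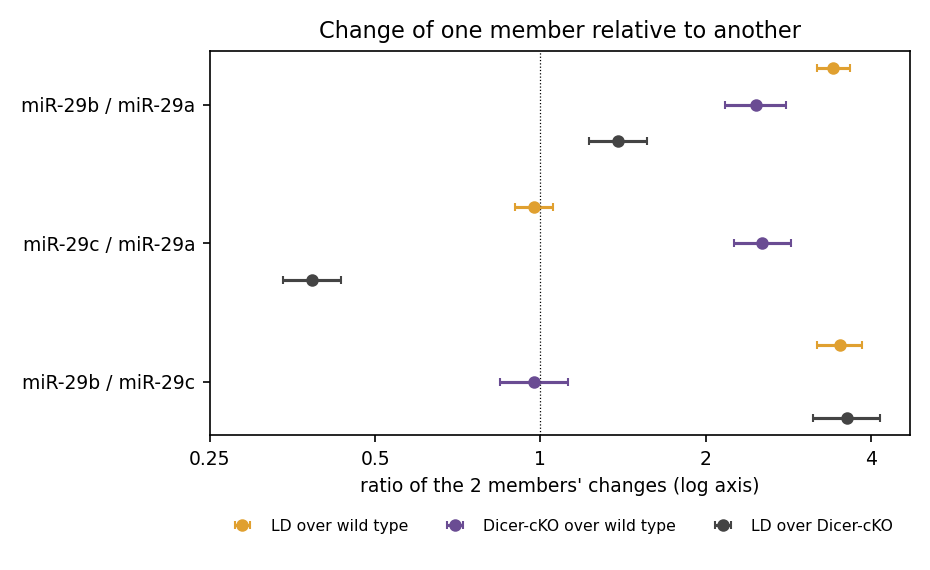
Ratio of the changes of the 2 members named on the y axis (x axis, log scale) for LD over wild type, Dicer-cKO over wild type and LD over Dicer-cKO; points are the values and bars exact conditional 95% intervals for counting error. The interval holds 1 for miR-29c over miR-29a after LD (0.973) and for miR-29b over miR-29c after Dicer deletion (0.972), and for none of the other 7.

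As a family, the 3 members summed to 12606 normalized counts in the wild type, 21108 in the LD and 8584 in the Dicer-cKO sample. The sum and the shares below add members whose bridges may capture with different efficiency. They also contain the wild type and LD values of miR-29a and miR-29b that chose the family, and are a description. In this scaling the sum was largest after LD, whereas before scaling it was largest in wild type, with 10915 molecules in wild type, 10371 in LD and 1942 in Dicer-cKO. As a share of the counts of all 602 miRNAs, the family made up 1.61% in wild type, 4.50% in LD and 4.39% in Dicer-cKO, a share that does not depend on the housekeeping mRNAs. A single miRNA took up 36.9% of all counts after LD, and another took up 36.4% in wild type. Without the first, the family made up 1.66% in wild type, 7.14% in LD and 4.65% in Dicer-cKO. Without the second, it made up 2.53%, 5.07% and 5.20%, and without both 2.66%, 8.66% and 5.57%. These 3 alternatives were chosen after seeing the data. The share was lowest in wild type under each of them, whereas which of LD and Dicer-cKO had the higher value depended on the miRNA left out. Whether these differences between LD and Dicer-cKO exceed counting error was not tested. The total itself came to 783889 normalized counts in wild type, 468576 in LD and 195642 in Dicer-cKO.

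The housekeeping mRNAs behind the scaling did not move together. From wild type to LD, Gapdh, a glycolytic enzyme, was at 0.475-fold and Rpl19, a ribosomal protein, at 1.71-fold, whereas Actb, the cytoskeletal actin, was at 1.18-fold and B2m, the light chain of MHC class I, at 1.04-fold. From wild type to Dicer-cKO the 4 ratios lay between 0.778 for Gapdh and 1.29 for B2m. The ratios of the members were therefore computed with 10 other references: the total miRNA signal with and without the highest miRNA after LD, the geometric mean of the 100 highest miRNAs, the median of ratios, each housekeeping mRNA alone, 3 control rows named nmiR, and 6 ERCC spike-in rows. The ERCC rows were taken as not multiplied by a sample's scaling factor, so this reference was applied to the miRNA counts before scaling.

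miR-29b was higher after LD than in wild type MG under all 10, from 2.15-fold with the ERCC rows to 11.0-fold with the total without the highest miRNA. miR-29a was higher after LD under 8 of the 10, at the highest 3.23-fold with the total without the highest miRNA. It was lower with Rpl19 alone (0.736-fold) and with the ERCC rows (0.631-fold). miR-29c was also higher under 8, 7 of them beyond counting error, at the highest 3.15-fold with the total without the highest miRNA. It was lower with Rpl19 (0.716-fold) and the ERCC rows (0.614-fold). The direction of miR-29a and miR-29c after LD thus depended on the reference, whereas that of miR-29b was the same with every reference tried. The ratios of miR-29a and miR-29b after LD chose the family, so this contrast is a description.

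After Dicer deletion no member kept its direction under all 10 references. miR-29a was above wild type under 3, at the highest 1.91-fold with the total without the highest miRNA, and below it beyond counting error under 6, at the lowest 0.0857-fold with the ERCC rows. miR-29b was above wild type under 7 of the 10, 6 of them beyond counting error, and below it beyond counting error under 3. The intervals leave out the counting error of the reference. In Dicer-cKO MG, B2m was at 502 normalized counts, which the scaling factor of 4.42 had raised from fewer molecules. With B2m alone, the interval of miR-29b (0.797 to 0.986) came close to 1. Whether it would hold 1 with the counting error of B2m included was not tested, so this fall may not exceed counting error. miR-29c was above wild type beyond counting error under 7 and below it under 2. The lowest ratios, 0.211 for miR-29b and 0.217 for miR-29c, were found with the ERCC rows. The highest, 4.72 for miR-29b and 4.86 for miR-29c, were found with the total without the highest miRNA. In the direct comparison, miR-29a and miR-29b were higher after LD than in Dicer-cKO MG under all 10, at the lowest 1.13-fold and 1.56-fold with the same total miRNA signal. miR-29c was higher beyond counting error under 4 and lower under 5, and ranged from 0.434-fold with the same total to 7.11-fold with the nmiR rows.

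**Figure D4:**
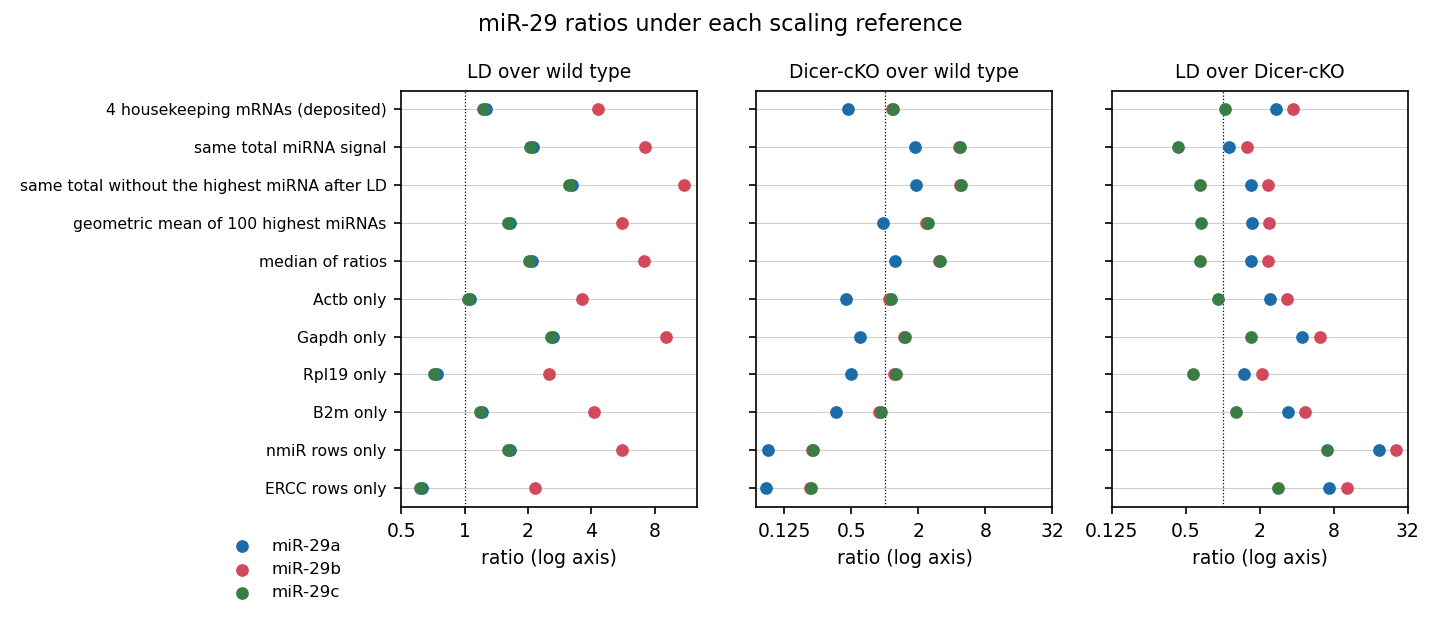
Ratio of each member between 2 samples (x axis, log scale) under the deposited scaling and 10 other references (y axis), for LD over wild type, Dicer-cKO over wild type and LD over Dicer-cKO; the dotted line marks a ratio of 1. The points of a row shift together and keep their distances: miR-29b is always right of 1 after LD, and miR-29a and miR-29c cross it with Rpl19 and with the ERCC rows.

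The pattern over the 3 samples was compared with that of the other miRNAs by the distance between their log2 ratios to wild type, among the 102 of the 104 miRNAs that were above the lowest value in every sample. The most similar miRNA to miR-29b was MIMAT0009401, with 1094 normalized counts in the wild type, 6129 in the LD and 1298 in the Dicer-cKO sample, at a distance of 0.39. The most similar to miR-29a was MIMAT0000526, with 504, 640 and 193 normalized counts in the same order, at a distance of 0.28. For miR-29c the nearest was MIMAT0011217, at 0.62, with 283, 255 and 246 normalized counts. The members were less alike than that. miR-29a lay 1.34 from miR-29c and 2.20 from miR-29b, with 22 and 55 miRNAs closer to miR-29a, respectively. Seen from the other member, 12 miRNAs were closer to miR-29c and 17 closer to miR-29b than miR-29a was. miR-29b lay 1.81 from miR-29c, with 11 miRNAs closer to miR-29b and 27 closer to miR-29c. These distances contain the ratios of LD to wild type of miR-29a and miR-29b, whose difference chose the family. They rest on 3 samples with 1 shared control and are a description.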

How the data were processed

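miRNAs of 3 pooled samples of sorted MG (1 per condition, 200 ng of RNA each) were counted on the NanoString nCounter. The authors deposited 1 table, whose values are a signal: counts of molecules that nSolver 4.0 had normalized against 4 housekeeping mRNAs, 8 negative controls and 6 positive controls. Wild type and Dicer-cKO counts from an earlier study were normalized again together with LD. Counting by probe used no genome, and the positions and sequences given here are those of GRCm38.p6.

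The factor by which nSolver had multiplied a sample was found from the steps between its housekeeping and nmiR values, deposited to 2 decimals. Divided by this factor, 342 of 342 miRNAs above the lowest value in wild type, 246 of 246 in LD and 243 of 243 in Dicer-cKO were whole counts minus the sample's fractional background within 0.51 normalized counts, where 88.3%, 50.1% and 23.1% would be by chance. The lowest value was shared by 260, 356 and 359 of the 602 miRNAs. It was deposited both rounded and unrounded, as 1 or 1.15 in wild type, 2 or 2.04 in LD and 4 or 4.42 in Dicer-cKO. Both forms were counted as the lowest value. Ratios used the deposited signal without a pseudocount. Intervals used the counts before scaling (Clopper-Pearson for ratios, Poisson for levels, conditional odds ratio for relative changes). The Clopper-Pearson intervals were tested on simulated Poisson counts. The simulation had known scaling factors and no background subtraction, so it checked only the calculation of the intervals. The share of miRNAs past a limit was taken over those of mean at least 100. Alternatives were 10 scalings, subtraction of the 10th percentile, pseudocounts of 1 and 10, and other limits. The text names the 3 members and, for each, the miRNA of most similar pattern. The fixed rule also covered lists of fibrosis and cell type miRNAs and pairs of miRNAs sharing a seed or cluster, but the sources used here do not pair the identifiers with names, so these were not analysed. All members and lists were chosen with earlier results of these data known. The 4 housekeeping symbols and the sequences came from RefSeq tables for GRCm38.p6. All 3 members were matched to the sequence table by name. The scripts ran in Python 3.11.15 with scipy 1.17.1, numpy 2.4.6, matplotlib 3.10.9 and pandas 2.3.3.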

Additional observations from a re-analysis of the deposited data

How the results depend on the processing

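No paired analysis was possible because there was only 1 sample per condition. The alternatives were planned with earlier results of these data known, except the family shares without the highest miRNA after LD, in wild type or both, and the cause of each change below was not tested. Members were counted as above only if clear of their own counting error, without that of the reference. The number above wild type after LD, 3, was 2 with Actb alone and 1 with Rpl19 alone or the ERCC rows. The number above wild type after Dicer deletion, 2, was 3 with the same total miRNA signal, the total without the highest miRNA or the median of ratios, 1 with Actb alone and 0 with B2m alone, the nmiR rows or the ERCC rows. The number above Dicer-cKO after LD, 2, was 3 with Gapdh alone, B2m alone, the nmiR rows or the ERCC rows. The direction turned for miR-29a after LD (0.736 with Rpl19, 0.631 with ERCC), for miR-29c after LD (0.716 and 0.614), for miR-29a after Dicer deletion (1.86 with the same total miRNA signal, 1.91 with the total without the highest miRNA after LD, 1.23 with the median of ratios), for miR-29b after Dicer deletion (0.887 with B2m, 0.219 with nmiR, 0.211 with ERCC) and for miR-29c after Dicer deletion (0.913, whose interval holds 1, 0.225 and 0.217). Subtracting the 10th percentile or adding a pseudocount of 1 or 10 left each of the 9 relative changes within its interval. The ratio of miR-29c between LD and Dicer-cKO, 1.04 and not clear of 1, was below 1 beyond counting error under 5 references, at the lowest 0.434 with the same total. How much background the authors subtracted is not known, and the intervals treat what was left as the count observed. Among the shares of miRNAs past 2-fold, the filter on mean signal and the fold limit moved some by over 1.5 times. In place of the filter, all miRNAs above the lowest value in both samples of a comparison were then taken. The share that was lower in Dicer-cKO than in wild type went from 60.6% to 39.3%. For LD over Dicer-cKO the higher share went from 41.3% to 27.4% and the lower share from 12.5% to 26.9% (20.5% at a minimum of 50). With a limit of 3-fold, the share lower in LD than in wild type went from 39.4% to 23.1%, and for LD over Dicer-cKO the higher share fell to 21.2% and the lower share to 6.73%. The other shares moved by less than that.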
